A study of Neogale vison with 6 samples.

Results

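This report follows 63 genes of the DNA damage response and of DNA repair in Mv1Lu cells, out of 24526 genes in the count table. The rule that picks them uses gene symbols and no measured value, although it was set with earlier results of these data known, so the counts describe the list. It takes the FANC, RAD, XRCC, BRCA, MSH, MLH, ERCC, PARP and POL families named for repair and a set of single genes such as ATM, ATR, BLM and UNG. Mv1Lu is a cell line from mink lung. The RNA of 3 libraries of untreated cells (control) was compared with that of 3 libraries of cells subjected to cholesterol depletion (CD). The CD cells were kept for 16 h with 50 μM lovastatin, a statin that inhibits HMG-CoA reductase, together with 50 μM mevalonate, the product of that enzyme, in medium with 10% lipoprotein-deficient serum (LPDS). No allele was altered in either group, and the contributions of statin, mevalonate and LPDS cannot be told apart. The sources used here do not say whether the libraries of a group came from separate cultures, so the tests measure the spread between libraries, which may be technical.

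Cells meet DNA damage along several routes. Kinases such as ATM and ATR sense broken or single-stranded DNA and halt the cell cycle. Homologous recombination copies the lost sequence from the sister chromatid and therefore works in S and G2 phase, whereas end joining seals break ends throughout the cycle. The Fanconi anemia proteins unhook crosslinks between the strands, mismatch repair corrects copying errors behind the replication fork, and excision repair removes damaged bases or bulky adducts. Many genes of recombination, crosslink repair and mismatch repair are known to be transcribed together with the replication genes by E2F factors in dividing cells.

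The libraries held between 13473820 and 18633764 reads on genes. Expression is given as CPM, the count of a gene scaled to a common library size after TMM normalization, and CD was compared with control by the quasi-likelihood test of edgeR, with a call at an FDR (Benjamini-Hochberg over all genes tested) under 0.05. Levels of different genes are not compared, because CPM is not corrected for gene length. A test of 3 libraries against 3 on a single gene cannot give an exact permutation p below 0.1. Of the epithelial markers examined, KRT19 was abundant (936 ± 66.9 CPM in control cells, SD, n = 3), whereas CDH1 and EPCAM, which define most epithelia, had only 8 and 7 counts in the control libraries together, and the collagen gene COL1A2 stood at 212 ± 24.6 CPM. The blood markers PTPRC and LYZ had 1 and 0 counts in all 6 libraries together. These lists differed between the groups. Of 7 epithelial markers 5 were found, and 1 was called higher and 1 lower. Their summed level was 884 to 1012 CPM across the control and 386 to 541 CPM across the CD libraries. KRT19, which fell (log2 fold change -1.03), made up nearly all of this sum. CLDN4 rose from 0.603 ± 0.231 to 7.03 ± 1.11 CPM (n = 3 each, ± SD; log2 fold change 3.55, FDR 9.61e-06, edgeR). ESRP1 had a log2 fold change of 1.24 that was not called (FDR 0.0698, edgeR). For the 5 fibroblast markers (3 lower) the summed level was 303 to 379 CPM and 179 to 228 CPM. The 4 endothelial markers summed to at most 0.220 CPM in any control and 1.96 CPM in any CD library, and the 3 blood markers found of 4 to 5.13 to 5.62 CPM and 16.9 to 22.4 CPM, mostly from CD68. Their part in the results for the repair genes was not tested.

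The repair genes as a group were expressed at a lower level in CD cells, and the largest reductions were those of UNG and of genes of crosslink repair and recombination. Of the 63 genes, 61 had enough counts to be tested. At an FDR under 0.05, 33 of them (54.1%) were lower in CD, compared with 22.9% of the 12148 genes tested in the whole table, and 3 (4.92%) were higher, compared with 24.8% of all genes. A called reduction of at least 2-fold was found for 23 members (37.7%), against 9.64% of all genes. The median log2 fold change was -0.58 over the 61 members and 0.057 over all tested genes. These shares describe the list and were not tested as a set.

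The sum over all 63 genes was 2094, 2077 and 2093 CPM in control replicates 1, 2 and 3 and 1358, 1359 and 1334 CPM in CD replicates 1, 2 and 3. The groups were far apart in this sum, and the CD libraries held 64.7% of the control mean. All 3 CD libraries lay below all 3 control libraries for 38 tested members (62.3%; 28.6% of all genes) and above them for 3 (4.92%; 29.5% of all genes), while the groups overlapped for 20. The other genes, MLH3 and MSH4, which act mainly in meiosis, had 6 and 1 counts in all libraries together and could not be tested.

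**Figure D1:**
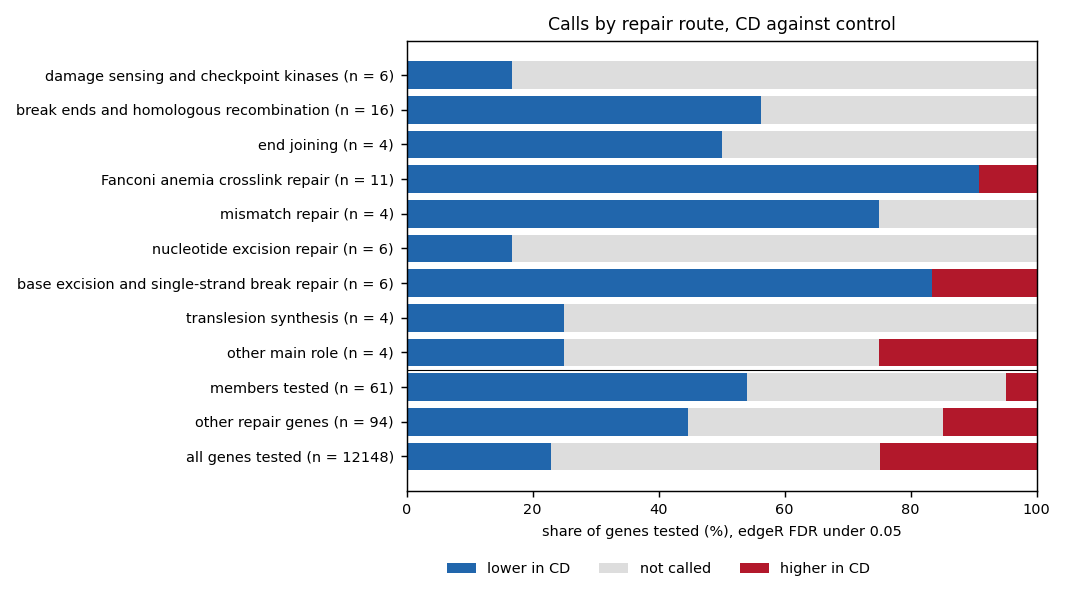
Share of genes tested (x axis, %) that were lower, not called or higher in CD than in control at an edgeR FDR under 0.05, by repair route, for the members tested together, for other repair genes outside the list and for all genes of the table; n, genes tested. The Fanconi anemia route had 10 of 11 genes lower, and the damage sensing and nucleotide excision routes 1 of 6 each, against 22.9% of all genes.

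The routes are ordered here by their medians. By median log2 fold change, the Fanconi anemia genes were lowest (-2.0), followed by base excision and single-strand break repair (-0.89), break ends and recombination (-0.80), mismatch repair (-0.72), end joining (-0.58), damage sensing (-0.40), translesion synthesis (-0.18) and nucleotide excision repair (-0.14). No difference between routes was tested, and the order was not the same among the other repair genes described below. Of the 13 members that fell at least 4-fold, 7 belonged to the Fanconi route and 4 to recombination. UNG and ERCC6L were the others. The share of all tested genes that fell this far was not counted.

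**Figure D2:**
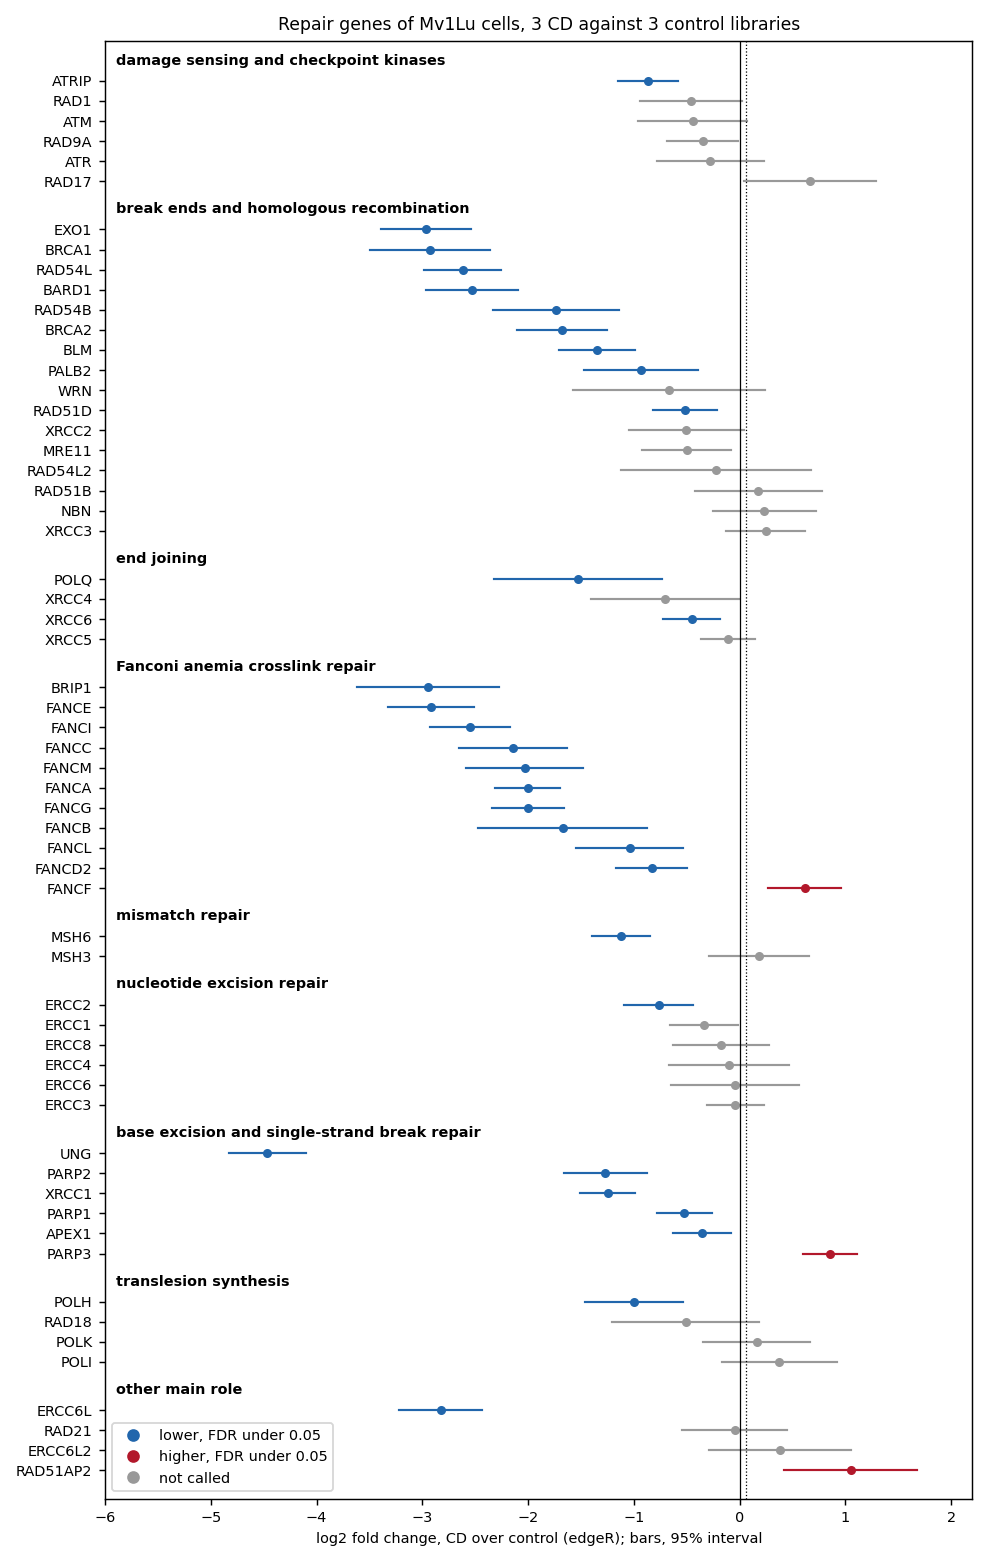
Log2 fold change of CD over control (x axis) for members tested, ordered within each repair route (edgeR; points, estimates from 3 libraries against 3; bars, 95% intervals; dotted line, median of all genes tested). Reductions reach -4.47 for UNG, whereas ATM, ATR, ERCC3, ERCC4, ERCC6 and ERCC8 have intervals that include 0.

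Crosslink repair starts with the Fanconi core complex, a ubiquitin ligase, which is brought to stalled forks by FANCM and modifies the pair FANCD2 and FANCI. Of the 8 genes of this first part (FANCA, FANCB, FANCC, FANCE, FANCF, FANCG, FANCL and FANCM), 7 fell and 1 rose (22.9% and 24.8% of all genes), with a median log2 fold change of -2.0. FANCE, a core subunit that binds FANCD2, was at 40.1, 43.7 and 43.1 CPM in control replicates 1, 2 and 3 and at 4.24, 6.32 and 6.20 CPM in CD replicates 1, 2 and 3. Every CD library thus held a small fraction of the control level. Its log2 fold change was -2.92 ± 0.18 (SE; FDR 1.60e-06, edgeR), or 7.58-fold.

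FANCA, a large scaffold subunit, fell from 132 ± 9.62 to 32.8 ± 4.71 CPM, and FANCG, its direct partner, from 31.3 ± 1.3 to 7.80 ± 0.769 CPM (n = 3 each, ± SD). Both lost the same factor, 4.01-fold (FDR 3.00e-06 and 5.64e-06, edgeR). FANCC, FANCM, FANCB and FANCL fell by 2.15, 2.03, 1.68 and 1.04 on the log2 scale. FANCL is the catalytic ligase subunit, and its reduction was the smallest among the subunits that fell. FANCB rested on 42 control reads and 13 CD reads.

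The exception was FANCF, an adaptor that holds the core complex together. Its values were 18.6, 19.7 and 19.1 CPM in control replicates 1, 2 and 3 and 24.7, 29.3 and 33.8 CPM in CD replicates 1, 2 and 3. All CD libraries were above all control libraries, with the widest distance in CD replicate 3. The log2 fold change was 0.61 ± 0.15 (SE; FDR 0.00837, edgeR), and it was called under all 15 alternative settings. The log2 ratio of FANCE to FANCF therefore moved from 1.15 ± 0.0329 in control to -2.40 ± 0.170 in CD cells (n = 3 each, ± SD), and that of FANCA to FANCF from 2.78 ± 0.118 to 0.17 ± 0.435. These ratios restate the opposite calls of their genes, and like the other ratios between genes given here they were chosen after the values were seen and carry no test.

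FANCI and FANCD2, which form one clamp on DNA, fell to different extents. FANCI was at 63.7, 64.6 and 61.6 CPM in control replicates 1, 2 and 3 and at 13.2, 10.7 and 8.43 CPM in CD replicates 1, 2 and 3. FANCD2 was at 47.8, 53.9 and 43.9 CPM in the control and at 30.9, 27.6 and 23.1 CPM in the CD libraries. Neither gene had overlapping groups, but FANCD2 kept more of its expression in every CD library. The log2 fold change was -2.55 for FANCI (95% interval -2.93 to -2.17, FDR 2.48e-06, edgeR) and -0.83 for FANCD2 (-1.17 to -0.50, FDR 0.00125, edgeR). Within a library, the log2 ratio of FANCI to FANCD2 was 0.39 ± 0.117 in control and -1.35 ± 0.114 in CD cells (n = 3 each, ± SD).

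BRIP1, also known as FANCJ, is a helicase that binds BRCA1. It showed 3.73, 4.19 and 3.20 CPM in control replicates 1, 2 and 3 and 0.615, 0.491 and 0.288 CPM in CD replicates 1, 2 and 3. The CD values rest on few reads and differed from each other by 2.13-fold, but none came near the control. With 168 control reads and 22 CD reads, the log2 fold change was -2.95 ± 0.30 (SE; FDR 3.70e-05, edgeR), the lowest of this route.

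Among the genes of break ends and homologous recombination, 9 of 16 fell, none rose and 7 were not called, where 22.9% of all genes fell and 24.8% rose. EXO1, an exonuclease that resects break ends and also serves mismatch repair, was at 17.7, 21 and 17.1 CPM in control replicates 1, 2 and 3 and at 2.27, 2.27 and 2.59 CPM in CD replicates 1, 2 and 3. The CD libraries agreed closely with each other here. The log2 fold change was -2.96 ± 0.19 (SE; FDR 1.91e-06, edgeR).

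BRCA1 and BARD1 form a ubiquitin ligase that directs breaks to recombination, and PALB2 links them to BRCA2, which prepares the broken strand for pairing with its copy. BRCA1 was at 22.9, 25.7 and 21 CPM in control replicates 1, 2 and 3 and at 4.18, 2.94 and 1.94 CPM in CD replicates 1, 2 and 3. BRCA2 was at 18.3, 17.6 and 15.3 CPM in the control and at 6.33, 4.48 and 5.11 CPM in the CD libraries. For both genes the groups were clearly apart, although CD replicate 1 was 2.15-fold above CD replicate 3 for BRCA1. BRCA1 fell by 2.93 on the log2 scale (SE 0.25, FDR 1.29e-05, edgeR) and BRCA2 by 1.68 (SE 0.19, FDR 7.27e-05, edgeR).

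BARD1 also fell, from 14.5 ± 1.23 to 2.48 ± 0.353 CPM (n = 3 each, ± SD; log2 fold change -2.53, FDR 6.30e-06, edgeR). PALB2 changed less, from 5.10 ± 1.27 to 2.65 ± 0.282 CPM (log2 fold change -0.94, FDR 0.00946, edgeR). The log2 ratio of BRCA1 to BARD1 was 0.68 ± 0.106 in control and 0.22 ± 0.379 in CD libraries (n = 3 each, ± SD), lower in every CD library. The intervals of the log2 fold changes ran from -2.97 to -2.09 for BARD1 and from -1.47 to -0.40 for PALB2, so that they did not overlap. The log2 ratio of BRCA2 to PALB2 was lower in all CD libraries (0.995 ± 0.0995) than in the control libraries (1.77 ± 0.277; n = 3 each, ± SD).

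The translocases RAD54L and RAD54B, which remodel DNA during the search for the matching strand, fell by 2.62 and 1.74 on the log2 scale (FDR 1.63e-06 and 5.05e-04, edgeR). BLM, a helicase that dissolves recombination intermediates, fell by 1.35 (FDR 1.07e-04, edgeR). RAD51D, which acts in strand exchange, was the least reduced of the called genes of this route. It was at 40.9, 35.6 and 39.8 CPM in control replicates 1, 2 and 3 and at 28.3, 28.7 and 24.3 CPM in CD replicates 1, 2 and 3, without overlap. Its log2 fold change was -0.52 (SE 0.13, FDR 0.00965, edgeR), and the call was lost without control replicate 1 (FDR 0.0552, edgeR).

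The remaining genes of recombination had smaller differences or wider spreads. MRE11, the nuclease of the complex that first binds break ends, had a log2 fold change of -0.50 and just missed the threshold (FDR 0.0507, edgeR), and 5 of the 15 alternative settings called it. NBN, its partner, had a log2 fold change of 0.23 (95% interval -0.25 to 0.72), and the ratio of MRE11 to NBN was lower in every CD library than in every control library. XRCC2, XRCC3 and RAD51B also act in strand exchange, and their log2 fold changes were -0.50, 0.25 and 0.18, with 95% intervals of -1.04 to 0.04, -0.13 to 0.62 and -0.42 to 0.77. These genes were not called with all libraries, but XRCC2 was called lower without CD replicate 3 (log2 fold change -0.65, FDR 0.0191, edgeR). The intervals are wide, so a missing call does not show that a gene was unchanged. WRN, a helicase and exonuclease, and RAD54L2, a chromatin remodeler related to RAD54, are taken up below with the genes that varied among the CD libraries.

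**Figure D3:**
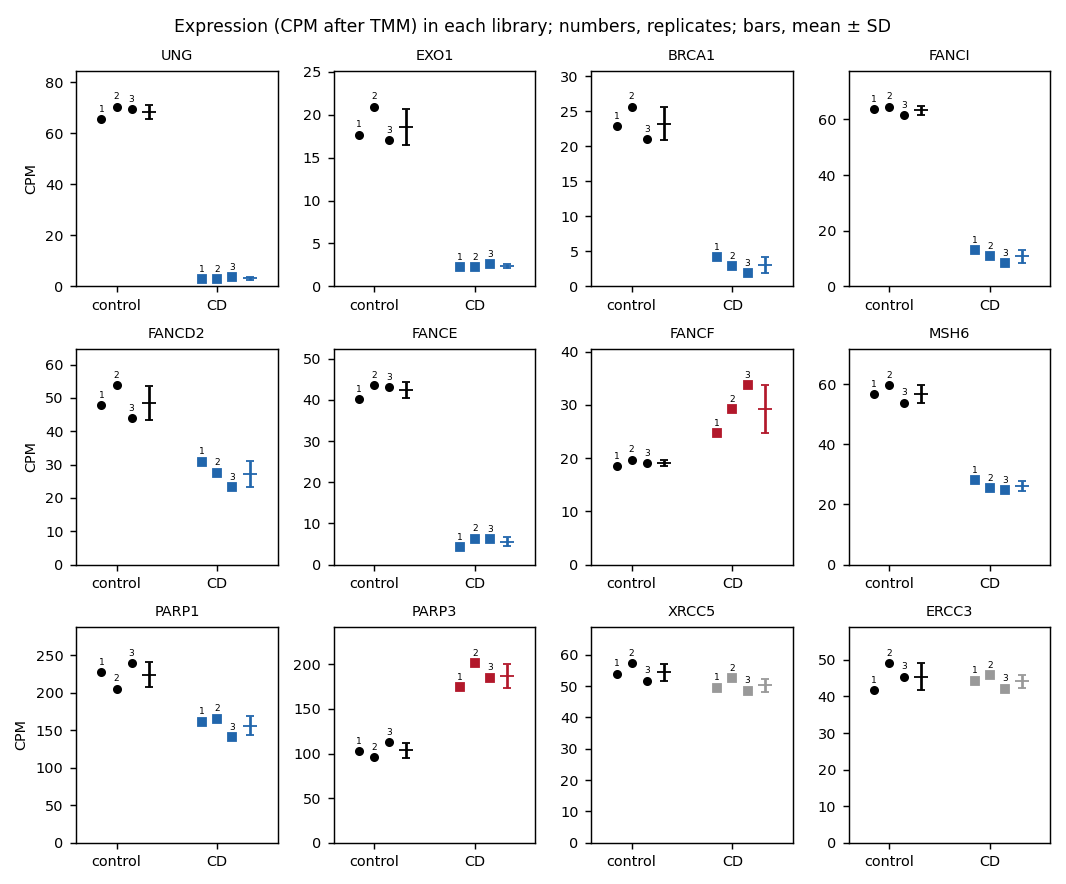
Expression (y axis, CPM after TMM normalization, each panel from 0) of 12 repair genes in each control library (circles) and each CD library (squares; blue, called lower; red, called higher; gray, not called); small numbers, replicates; bars, mean ± SD of 3 libraries. UNG, EXO1 and BRCA1 drop to a small fraction of the control, FANCF and PARP3 are above it in all CD libraries, and XRCC5 and ERCC3 stay near it.

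Of the end joining genes, 2 of 4 fell (22.9% of all genes), too few for the share to be read. XRCC5 and XRCC6 encode Ku80 and Ku70, the ring that grips break ends. XRCC6 was at 55.5, 61 and 55.6 CPM in control replicates 1, 2 and 3 and at 41.7, 38.6 and 45.3 CPM in CD replicates 1, 2 and 3. XRCC5 was at 54.0, 57.4 and 51.8 CPM in the control and at 49.5, 52.6 and 48.6 CPM in the CD libraries. The groups were apart for XRCC6 and overlapped for XRCC5, although both proteins act as one unit. XRCC6 fell by 0.45 on the log2 scale (SE 0.12, FDR 0.0112, edgeR), whereas XRCC5 had a log2 fold change of -0.11 (95% interval -0.37 to 0.14, FDR 0.433, edgeR). The log2 ratio of XRCC6 to XRCC5 was 0.076 ± 0.0344 in control and -0.27 ± 0.174 in CD cells (n = 3 each, ± SD), again without overlap. The call of XRCC6 was lost without control replicate 2 (FDR 0.0545, edgeR), which left 1 called gene in this route.

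POLQ, the polymerase of an alternative, microhomology-driven end joining, was at 4.16, 4.55 and 4.19 CPM in control replicates 1, 2 and 3 and at 2.40, 0.675 and 1.37 CPM in CD replicates 1, 2 and 3. All CD values were lower, but they spread over 3.55-fold, which makes the size of the change uncertain. The log2 fold change was -1.53 (95% interval -2.33 to -0.73, FDR 0.00563, edgeR), and it lay between -2.08 and -1.21 when single libraries were left out. XRCC4, the scaffold of the end joining ligase, had a log2 fold change of -0.71 that did not pass the test (FDR 0.0889, edgeR).

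In mismatch repair, 3 of the 4 genes tested fell (22.9% of all genes), again too few for the share to be read. MSH6, a subunit of the complex that recognizes mispaired bases, was at 56.7, 59.8 and 53.9 CPM in control replicates 1, 2 and 3 and at 28.1, 25.5 and 24.8 CPM in CD replicates 1, 2 and 3. The groups did not overlap, and the CD libraries were close to each other. Its log2 fold change was -1.12 (SE 0.12, FDR 6.03e-05, edgeR), or 2.17-fold. MSH3, which serves the recognition of larger loops, was not called, at 3.79 ± 0.436 CPM in the control libraries and 4.29 ± 0.680 CPM in those of CD (n = 3 each, ± SD; log2 fold change 0.18, 95% interval -0.29 to 0.66). The intervals of MSH6 (-1.40 to -0.85) and MSH3 did not overlap.

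Base excision repair held the most reduced gene of the list. UNG, the glycosylase that removes uracil from DNA, was at 65.5, 70.5 and 69.7 CPM in control replicates 1, 2 and 3 and at 2.77, 2.88 and 3.67 CPM in CD replicates 1, 2 and 3. Each CD library held about as little as the others. This corresponds to 3155 reads in the control and 143 reads in the CD libraries, a log2 fold change of -4.47 ± 0.16 (SE; FDR 1.11e-07, edgeR), or 22.1-fold. With any 1 library left out, the value stayed between -4.63 and -4.38.

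APEX1, the nuclease that cuts the site left by UNG and other glycosylases, was at 187, 179 and 179 CPM in control replicates 1, 2 and 3 and at 122, 141 and 162 CPM in CD replicates 1, 2 and 3. The groups did not overlap, but CD replicate 3 came near the control. The log2 fold change of -0.36 was called (SE 0.12, FDR 0.0365, edgeR) but was lost in 6 of 15 alternative settings, namely without any one of CD replicates 1 and 2 and control replicates 1, 2 and 3 (FDR between 0.0844 and 0.124, edgeR) and with the replicate number as a block (FDR 0.0608, edgeR). The log2 ratio of UNG to APEX1, which act in sequence, was lower by 4.11 in CD cells.

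Single-strand breaks are sensed by the poly(ADP-ribose) polymerases PARP1 and PARP2, which recruit the scaffold XRCC1. XRCC1 was at 151, 131 and 145 CPM in control replicates 1, 2 and 3 and at 54.8, 61.2 and 63.3 CPM in CD replicates 1, 2 and 3. Its groups were well separated. XRCC1 and PARP2 had nearly the same log2 fold changes, -1.25 and -1.27 (FDR 2.09e-05 and 2.62e-04, edgeR). PARP1 was at 228, 206 and 240 CPM in control replicates 1, 2 and 3 and at 161, 166 and 141 CPM in CD replicates 1, 2 and 3. It was lower in each CD library, with a log2 fold change of -0.52 (SE 0.12, FDR 0.00415, edgeR).

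PARP3, which responds to double-strand breaks and attaches single ADP-ribose units, went the other way. It was at 103, 95.6 and 112 CPM in control replicates 1, 2 and 3 and at 174, 202 and 185 CPM in CD replicates 1, 2 and 3. All CD libraries were well above the control libraries. PARP3 rose by 0.85 on the log2 scale (SE 0.12, FDR 2.21e-04, edgeR), or 1.80-fold, and was called in all 15 alternative settings. The log2 ratio of PARP3 to PARP1 changed from -1.11 ± 0.0287 to 0.26 ± 0.142 (n = 3 each, ± SD).

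**Figure D4:**
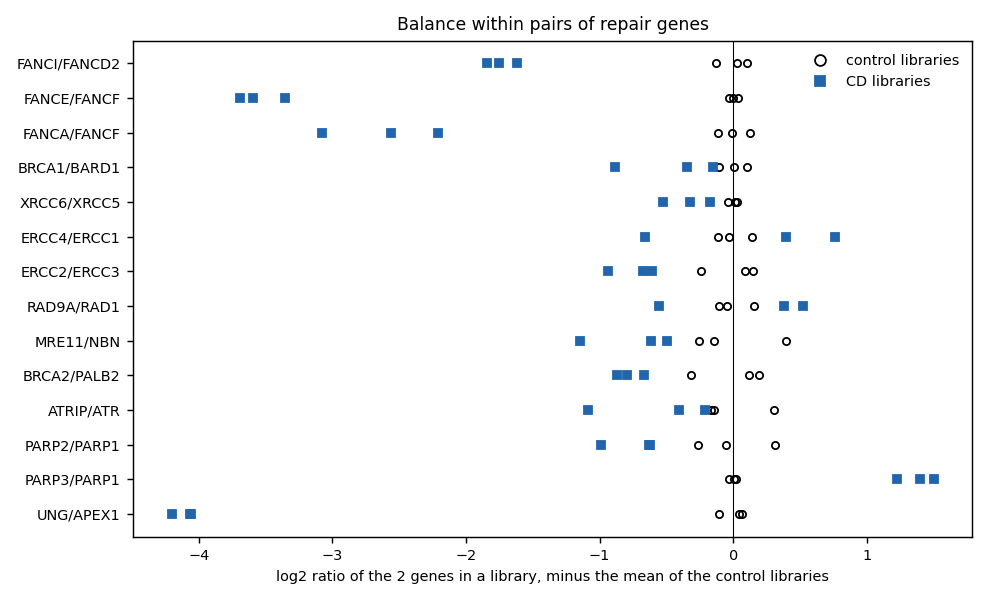
Log2 ratio of the CPM of 2 repair genes in each library, minus the mean of the control libraries (x axis), for 14 pairs of genes that act together (circles, 3 control libraries; squares, 3 CD libraries). FANCE and FANCA against FANCF, FANCI against FANCD2 and UNG against APEX1 lie far below the control in all CD libraries, while ERCC4/ERCC1 and RAD9A/RAD1 overlap with it.

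Of the damage sensing genes, 1 of 6 fell and none rose, with the share that fell near the 22.9% of all genes. ATM, the kinase that responds to double-strand breaks, was at 7.95, 10.6 and 8.65 CPM in control replicates 1, 2 and 3 and at 8.79, 5.83 and 5.33 CPM in CD replicates 1, 2 and 3. ATR, the kinase for single-stranded DNA at stalled forks, was at 12.5, 12.6 and 9.37 CPM in the control and at 12.4, 7.85 and 8.07 CPM in the CD libraries. For both genes CD replicate 1 lay within the control range and the other CD libraries below it. The log2 fold changes of -0.44 for ATM (95% interval -0.96 to 0.07) and -0.28 for ATR (-0.78 to 0.23) were not called, although ATM was called without CD replicate 1 (log2 fold change -0.69, FDR 0.0209, edgeR).

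ATRIP, the partner that carries ATR to coated single-stranded DNA, was the only gene of damage sensing called with all libraries. Its values were 42.3, 43.1 and 43.7 CPM in control replicates 1, 2 and 3 and 22.1, 25.7 and 23.1 CPM in CD replicates 1, 2 and 3. The CD libraries were tightly grouped, below all control libraries. ATRIP fell by 0.87 on the log2 scale (SE 0.13, FDR 3.57e-04, edgeR). RAD9A and RAD1, subunits of the checkpoint clamp, had log2 fold changes of -0.35 and -0.46 that did not pass the test (FDR 0.0821 and 0.103, edgeR), although their CD libraries lay below the control libraries. RAD1 was called lower without CD replicate 1 (log2 fold change -0.66, FDR 0.0215, edgeR), where the called genes of this route numbered 3, with ATRIP and ATM, and RAD9A without CD replicate 3 (log2 fold change -0.56, FDR 2.67e-05, edgeR). RAD17, which loads this clamp on DNA, had a log2 fold change of 0.66 (FDR 0.0746, edgeR), and it was called higher without CD replicate 3 (FDR 0.0259, edgeR).

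In nucleotide excision repair, which removes bulky adducts such as those made by ultraviolet light, 1 of 6 genes fell, a share near the 22.9% of all genes. ERCC2, a helicase of the general transcription factor TFIIH, was at 64.8, 58.2 and 67.7 CPM in control replicates 1, 2 and 3 and at 38.8, 42.3 and 30.8 CPM in CD replicates 1, 2 and 3. No CD library reached the control range, and the log2 fold change was -0.77 (SE 0.14, FDR 0.00171, edgeR). ERCC3, the other helicase of TFIIH, had a log2 fold change of -0.042 with a 95% interval of -0.31 to 0.23. The ratio of ERCC2 to ERCC3 was lower in all CD libraries. ERCC1 and ERCC4 form the nuclease that cuts on the far side of the lesion, and their log2 fold changes were -0.34 (95% interval -0.66 to -0.01, FDR 0.0815, edgeR) and -0.10 (-0.67 to 0.47). Without CD replicate 3, ERCC1 was called lower (log2 fold change -0.49, FDR 0.00324, edgeR), which made 2 called genes in this route. ERCC6 and ERCC8, which act when RNA polymerase stalls at damage, had log2 fold changes of -0.043 and -0.18.

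Translesion polymerases copy past damaged bases. POLH, which reads through ultraviolet photoproducts, was at 25.4, 26.5 and 22.6 CPM in control replicates 1, 2 and 3 and at 16.2, 11.8 and 9.15 CPM in CD replicates 1, 2 and 3. It was lower in all CD libraries, with a log2 fold change of -1.0 (SE 0.21, FDR 0.00298, edgeR). The related polymerases POLI and POLK had log2 fold changes of 0.38 (95% interval -0.17 to 0.92) and 0.16 (-0.34 to 0.67), and their groups overlapped. RAD18, the ligase that calls these polymerases to the fork, had a log2 fold change of -0.51 that did not pass the test (FDR 0.20, edgeR). Without CD replicate 3, RAD18 was called lower (log2 fold change -0.81, FDR 0.00646, edgeR), beside POLH.

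Among the genes that match the naming pattern but act mainly elsewhere, ERCC6L, a helicase that resolves DNA bridges in mitosis, was at 24.4, 25.8 and 21.2 CPM in control replicates 1, 2 and 3 and at 3.13, 3.37 and 3.53 CPM in CD replicates 1, 2 and 3. The distance between the groups was large and the spread within them small, and ERCC6L fell by 2.83 on the log2 scale (SE 0.18, FDR 1.59e-06, edgeR). RAD51AP2, known from recombination in the germ line, was at 1.79, 2.1 and 1.27 CPM in control replicates 1, 2 and 3 and at 3.01, 3.01 and 4.61 CPM in CD replicates 1, 2 and 3. It was the third member that rose, from 77 control reads to 162 CD reads (log2 fold change 1.05, SE 0.28, FDR 0.0114, edgeR). The call was lost without control replicate 3 (FDR 0.0632, edgeR). RAD21, a subunit of cohesin, and ERCC6L2, a helicase linked to break repair, were not called, with log2 fold changes of -0.046 and 0.38.

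Several members without a call differed widely among the CD libraries themselves. The highest CD library exceeded the lowest by more than 2-fold for 11 of the 61 members (18%), compared with 13.1% of all tested genes. Of these 11 genes, 8 were not called and 3 (BRCA1, BRIP1 and POLQ) were lower. CD replicate 3 was the lowest for 8 of them (72.7%) and CD replicate 1 the highest for 9 (81.8%), near the 72.9% and 73.5% found among the 1592 tested genes of the whole table with such a range. Over all tested members, CD replicate 3 was the lowest of the CD libraries in 44.3%, close to the 41.0% found for all genes. CD replicate 3 also had the highest shares of reads assigned to no gene feature (25.4%) and of unmapped reads (9.37%) among the CD libraries, although control replicates 1 and 2 had higher shares of unmapped reads (18.4% and 13.6%). The part of these shares in the spread was not tested.

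RAD54L2 was the extreme case. It was at 19, 16.6 and 20.9 CPM in control replicates 1, 2 and 3 and at 25.0, 17.7 and 5.55 CPM in CD replicates 1, 2 and 3, so that CD replicate 1 lay above the control range, CD replicate 2 within it and CD replicate 3 far below it. Its log2 fold change of -0.22 (95% interval -1.12 to 0.68) became 0.14 without CD replicate 3 and -0.68 without CD replicate 1. WRN, RAD21, ERCC4, ERCC6 and ERCC6L2 likewise were highest in CD replicate 1 and lowest in CD replicate 3. For WRN the log2 fold change of -0.67 (FDR 0.202, edgeR) was -1.29 and called without CD replicate 1 (FDR 0.0110, edgeR). RAD18 and XRCC4 had another order, with the lowest value in CD replicate 2 and the highest in CD replicate 3.

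**Figure D5:**
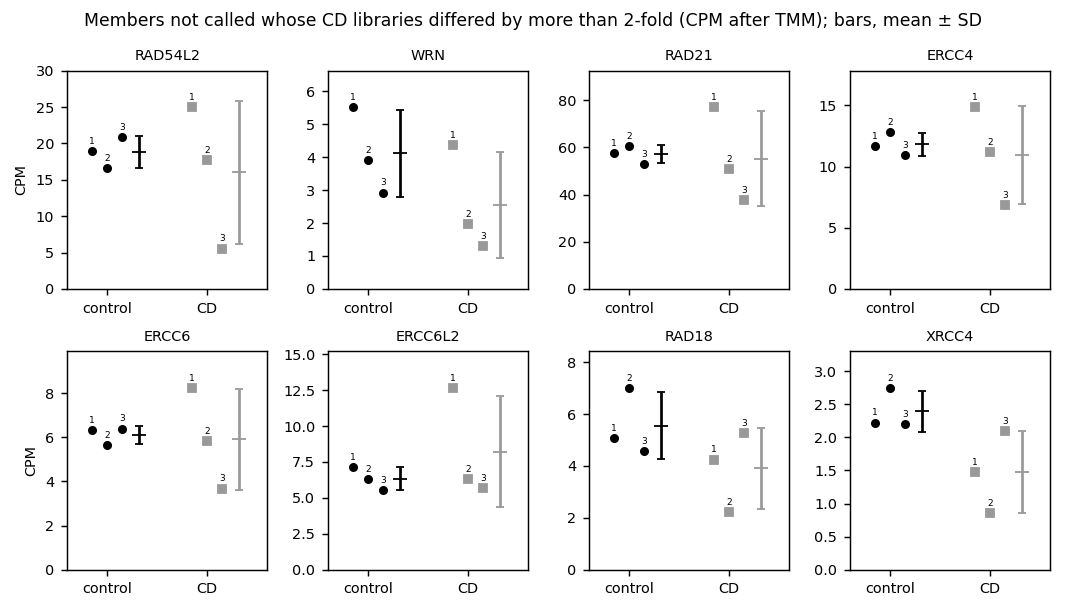
Expression (y axis, CPM after TMM normalization, each panel from 0) of the 8 members without a call whose CD libraries (gray squares) differed from each other by more than 2-fold, beside the control libraries (black circles); small numbers, replicates; bars, mean ± SD of 3 libraries. For RAD54L2, WRN, RAD21, ERCC4, ERCC6 and ERCC6L2 the highest CD value is that of replicate 1 and the lowest that of replicate 3.

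Without CD replicate 3, 38 members (62.3%) were lower and 5 (8.2%) higher in CD at an FDR under 0.05 (edgeR), while 29.2% and 29.3% of the 12330 genes tested in that fit were. The added lower genes were ERCC1, RAD9A, RAD18, XRCC2 and XRCC4, and the added higher ones were RAD17 and ERCC6L2. Of the 33 genes called lower with all libraries, 29 were also called in every alternative setting in which they could be tested, and of the 3 higher genes FANCF and PARP3 were. For 8 of the called members (ERCC2, ERCC6L, FANCA, FANCI, FANCL, RAD54B, RAD54L and XRCC6), another protein-coding gene overlaps in the RefSeq annotation of mink assembly ASM_NN_V1, and reads of overlapping genes may not be fully separated in the counts.

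Other repair genes, taken from a list of 113 genes of the same routes and of direct reversal outside the naming pattern, also held more genes that fell than rose. Of these, 94 were found by symbol and tested. In CD, 42 (44.7%; 22.9% of all genes) fell and 14 (14.9%; 24.8% of all genes) rose, with a median log2 fold change of -0.29. The number that rose was 9 without control replicate 1 and 8 without control replicate 3. The most reduced were NEIL3 (log2 fold change -3.26), a glycosylase for oxidized bases, TIMELESS (-3.10) and CLSPN (-2.61), which hold the checkpoint at the fork, the flap nuclease FEN1 (-2.76), the nuclease and helicase DNA2 (-2.72) and the helicase RECQL4 (-2.62).

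The genes of this list that rose most were UBE2B (log2 fold change 1.74), the ubiquitin-conjugating enzyme that works with RAD18, the recombination partners SFR1 (1.44) and SWI5 (0.81), the cell cycle kinase WEE1 (0.91), UIMC1 (0.89), which brings BRCA1 to ubiquitin at breaks, and XPA (0.81), which verifies lesions in nucleotide excision repair. UBE2B went from 13.2 ± 2.42 to 44.2 ± 10.5 CPM (n = 3 each, ± SD; FDR 8.84e-05, edgeR). Thus UBE2B was higher in CD cells, whereas its partner RAD18 was not called. By route, the lower and higher genes numbered 13 and 4 of 21 for recombination, 5 and 1 of 10 for the Fanconi route, 7 and 1 of 15 for base excision, 6 and 1 of 12 for damage sensing, 3 and 0 of 4 for mismatch repair, 3 and 1 of 7 for end joining, 4 and 3 of 13 for nucleotide excision, and 1 and 2 of 9 for translesion synthesis, where 22.9% of all genes were lower and 24.8% higher. The genes of direct reversal, MGMT, ALKBH2 and ALKBH3, had 0 lower and 1 higher. The median log2 fold changes of the routes had another order here than among the members. Mismatch repair was lowest (-0.91), followed by damage sensing (-0.60), recombination (-0.58), the Fanconi route (-0.57) and base excision (-0.21). End joining (-0.19), nucleotide excision (-0.11), direct reversal (0.41) and translesion synthesis (0.44) came next.

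Genes of S phase and of dividing cells fell in the same libraries. The MCM genes of the replicative helicase, MCM2 to MCM7, were all called lower (6 of 6), with a median log2 fold change of -2.82. Their summed level ranged from 1652 to 1830 CPM in the control and from 252 to 259 CPM in the CD libraries. TOP2A, CCNA2 and CDK1, the 3 genes tested of 5 markers of dividing cells, were lower as well, with sums of 150 to 171 CPM in the control and 31.5 to 37.1 CPM in the CD libraries. In bulk RNA, fewer cells in S phase and less RNA per cell cannot be told apart, and the part of this change in the reduction of the repair genes was not tested.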

How the data were processed

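The authors sequenced 3 control and 3 CD libraries of Mv1Lu RNA. Groups and replicate numbers follow the sample labels. The methods of the study and the labels name poly(A) selection, Nextera XT libraries, fastp 0.20.1, STAR 2.7.2a on mink assembly NNQGG.v01 and DESeq2 1.30.1 in R 4.0.3. The read counter and its strand setting are not given in the sources used here. The authors deposited raw counts, which were used. Between 29.3% and 47.2% of the reads of a library were in rows that name no gene, and these were left out. The deposited normalized files were not used. They share all 24526 identifiers with the counts, but the values under an identifier did not follow its counts (Spearman correlation at most 0.00674 in size). The cause was not tested.

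The counts were filtered with filterByExpr (minimum count 10, minimum total 15), scaled by TMM and fitted with glmQLFit (robust) and glmQLFTest of edgeR 4.0.16 in R 4.3.3, with condition as the only term. The code was tested on simulated data. The standard error is the log2 fold change divided by the square root of F (median 0.18 over all tested genes) and covers read depth together with the spread between libraries. The members and the gene lists were chosen with earlier results of these data known. Genes given by library were those named in advance by role and, per route, the called genes with the highest and lowest log2 fold change. CHEK1, also named in that rule, was not analysed here. Some genes of the list enter the counts and medians but are not reported here singly. Pairs of genes and the members with wide spread were chosen after their values were seen. RAD51AP2 was assigned to a route after the table was seen. Of the 63 members, 62 matched the RefSeq annotation by symbol, which was used only for neighbors and overlaps. Alternatives were DESeq2 1.42.0, limma 3.58.1 (voom, and log2 of normalized counts with a pseudocount of 1), other scalings, other filters, a replicate block and each library left out. Replicates of a group differed by more than sampling noise.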

Additional observations from a re-analysis of the deposited data

How the results depend on the processing

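Over 15 alternative settings, 883 of 909 values of single members stayed on their side of the threshold, 10 lost a call and 16 gained one, and no call was reversed. The sign of the log2 fold change changed in 6 of the 909 values, for ERCC3, ERCC4, ERCC6, ERCC6L2, RAD21 and RAD54L2, none of which was called with all libraries. The number of members lower in CD lay between 30 and 38 and was within 1.5 times the reported 33 in every setting run. The number of higher members was between 2 and 5 with 1 library left out, with 5 without CD replicate 3. The number of other repair genes that were higher (14) was 9 at an FDR under 0.01 and between 8 and 18 with 1 library left out, with 9 without control replicate 1 and 8 without control replicate 3. The cause was not tested.

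The sources used here do not say whether libraries with the same replicate number belong together. With 3 libraries in each group, correlations of their deviations from the group mean cannot decide it. Deviations of libraries with the same number had correlations of -0.024, -0.33 and -0.18, and no control library correlated best with the CD library of its own number. With the replicate number as a block, 33 members were lower and 3 higher, 37 other repair genes were lower and 13 higher, APEX1 was no longer called (FDR 0.0608) and WRN was (log2 fold change -0.79, FDR 0.0286, edgeR). The scalings moved the median of all genes by at most 0.0325 (log2). MRE11 was called with the size factors of DESeq2, both limma settings and a minimum of 50 counts in 3 libraries (FDR 0.0373 to 0.0459).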
